A study of Homo sapiens with 24 samples.

Results

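Gene expression in RCC4+VHL cells was examined for 9 genes that handle acid and bicarbonate: 6 carbonic anhydrases (CA2, CA8, CA9, CA11, CA12 and CA13) and 3 bicarbonate transporters (SLC4A2, SLC4A4 and SLC4A7). They were picked by name, and all 9 were found among the 23106 gene symbols in the count tables. RCC4 is a line of renal carcinoma cells without working VHL, the protein that marks HIF-α for destruction when oxygen is present, and in RCC4+VHL cells VHL was put back by stable transfection. All 24 libraries therefore came from 1 transfected line, and all groups carried the restored VHL. Each group had 6 replicates and was treated for 6 h: normoxia + DMSO (21% oxygen, 0.1% DMSO), normoxia + ITE (21% oxygen, 100 nM ITE), hypoxia + DMSO (0.5% oxygen, 0.1% DMSO) and hypoxia + ITE (0.5% oxygen, 100 nM ITE). ITE is a ligand that activates the aryl hydrocarbon receptor (AHR), which shares its partner HIF-1β with HIF-α, and cells were kept in charcoal-treated serum beforehand.

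Carbonic anhydrases turn carbon dioxide and water into bicarbonate and a proton, and back again. Bicarbonate transporters of the SLC4 family then move bicarbonate across the membrane, so that both families help to set the pH on both sides of it. Hypoxic cells make more lactate and protons, and CA9 is among the best known HIF target genes in renal carcinoma.

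The labels were checked on genes that the study measured by RT-qPCR. NDRG1 rose by 3.25 in hypoxia with DMSO and by 2.96 in hypoxia with ITE on the log2 scale (adjusted p = 5.68e-15 and 5.07e-14, edgeR). With ITE, the AHR target CYP1B1 rose by 2.51 in normoxia and by 2.35 in hypoxia (adjusted p = 7.64e-09 and 6.18e-08, edgeR). All 6 markers of renal epithelial carcinoma passed the count filter. Total counts per library ran from 770094 to 93851342 (median 7981992). The shallowest library was hypoxia + DMSO replicate 2, in which 3 counts amount to 3.90 CPM, where CPM is the count after scaling every library to the same size. Limits of 3 counts, here and below, use raw library totals. The CPM values of genes also carry a scaling factor per library (TMM), so the limits are approximate beside them. In 5 libraries (hypoxia + DMSO replicates 1 and 2, and hypoxia + ITE replicates 1, 3 and 6) the genes lay further from their group median than elsewhere. The median distance was 0.321 to 0.755 on the log2 scale there, and 0.11 to 0.197 in the others. Normoxia + DMSO replicate 4 was ordinary by this measure (0.135), but it held 72 genes with at least 10 counts and at least 20 times the CPM of any other library, against 0 or 1 such genes in each of the other 23. The comparisons of the 9 genes with normoxia + DMSO are therefore also given without that library.

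Only 5 of the 9 genes were expressed well enough to be tested: SLC4A2, CA2, SLC4A7, SLC4A4 and CA13 passed edgeR's filter on low counts, as did 11735 genes in all. Divided by the exon length of the gene, levels over the 24 libraries averaged 30.2 CPM per kb for SLC4A2 and 13.5 for CA2. They averaged 2.37 CPM per kb for SLC4A7, 1.96 for SLC4A4 and 0.774 for CA13. SLC4A2, the chloride-bicarbonate exchanger AE2, stood above CA2 in 23 of 24 libraries, and CA2 stood above SLC4A7 in all 24. SLC4A7 stood above SLC4A4 in 18 of 24 libraries, so the order of these neighbours was not kept throughout. SLC4A4 stood above CA13 in all 24. The other 4 were far lower, at 0.159 CPM per kb for CA11, 0.0422 for CA12, 0.0125 for CA9 and 0.0031 for CA8. Without normoxia + DMSO replicate 4, CA12 averaged 0.00176 CPM per kb and CA9 was at 0. CA11 and CA8 belong to the carbonic anhydrase-related proteins, which lack enzyme activity. CA9 and CA12 are the membrane enzymes with the active site outside the cell. The expressed carbonic anhydrases among the 9 genes, CA2 and CA13, are both enzymes of the cytosol.

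**Figure D1:**
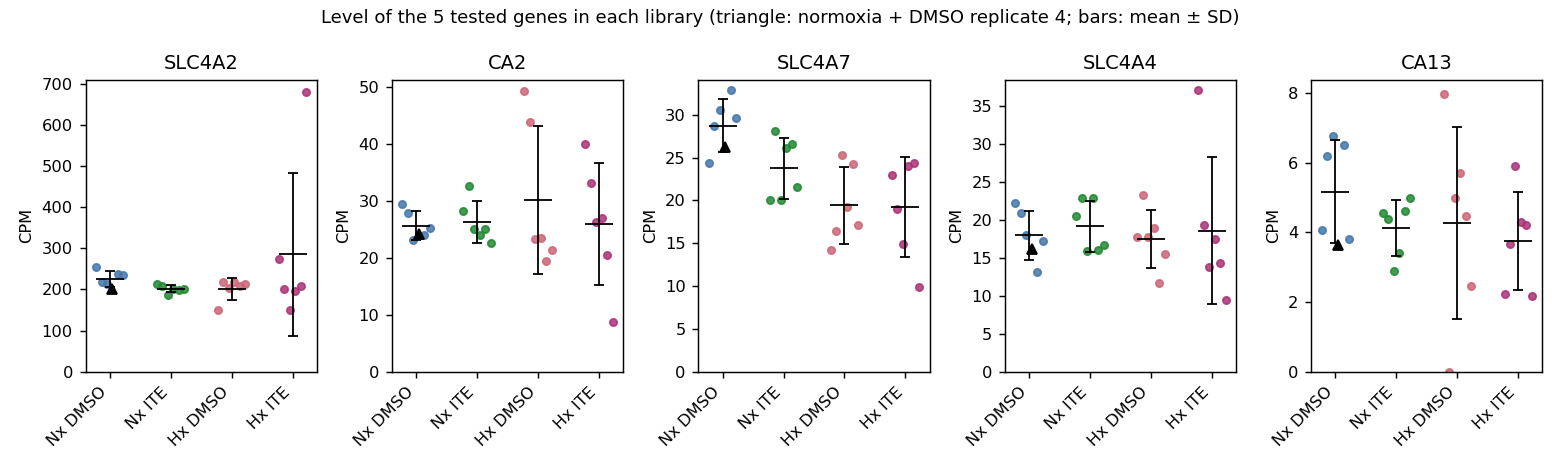
CPM (counts after scaling libraries to the same size, linear axes that differ between genes) of the 5 tested genes in each of the 24 libraries, 1 point per library, with bars for the mean ± SD of 6 libraries and a triangle for normoxia + DMSO replicate 4. SLC4A2 reached 681 CPM in hypoxia + ITE replicate 6, while the points of normoxia and hypoxia overlapped for each gene.

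CA9 lies on chromosome 9 of GRCh37 from 35673925 to 35681156, and was almost absent from these cells. It had 13 counts in all, and all 13 came from normoxia + DMSO replicate 4 (0.478 CPM). The other 23 libraries had 0 counts among 470700632, which allows a level of up to 0.00637 CPM if 3 counts are taken as the limit. In hypoxia, 0 counts were found among 63797061 with DMSO and among 162043543 with ITE, and these allow up to 0.0470 and 0.0185 CPM. Such limits cover counting error only. Induction of CA9 by hypoxia was thus not detectable at this depth, in cells where NDRG1 and PFKFB4 rose strongly. Mean CA9 was 0.0797 CPM lower in hypoxia + DMSO than in normoxia + DMSO, and without replicate 4 both groups were at 0. With counts in 1 library only, each relabelling of the libraries gives a difference of the same size. A permutation test therefore cannot decide anything for CA9.

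The sequence before the start of CA9 is shown because the known HIF site of this gene lies there. CA12 is shown as the other membrane enzyme, and SLC4A7 as the expressed member with the smallest adjusted p in hypoxia with DMSO. Sequences are RefSeq promoters (GRCh38.p14) that were found once in GRCh37, at chr9:35673675-35673924 on the plus strand for CA9, at chr15:63674046-63674295 on the minus strand for CA12, and at chr3:27525912-27526125 on the minus strand for SLC4A7. They run 5′ to 3′ towards the start of the gene, and the 36 bases of the SLC4A7 promoter that lie inside the annotated gene were left off, so that 214 are shown. Capitals mark ACGTG, the core of the HIF site, or GCGTG, which is the core of the AHR site and also occurs in HIF sites, read on either strand.
CA9: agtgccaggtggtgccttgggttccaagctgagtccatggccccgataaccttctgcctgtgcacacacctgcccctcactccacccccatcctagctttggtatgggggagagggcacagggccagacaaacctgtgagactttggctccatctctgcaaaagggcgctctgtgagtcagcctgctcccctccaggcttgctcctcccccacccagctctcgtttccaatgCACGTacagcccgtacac
CA12: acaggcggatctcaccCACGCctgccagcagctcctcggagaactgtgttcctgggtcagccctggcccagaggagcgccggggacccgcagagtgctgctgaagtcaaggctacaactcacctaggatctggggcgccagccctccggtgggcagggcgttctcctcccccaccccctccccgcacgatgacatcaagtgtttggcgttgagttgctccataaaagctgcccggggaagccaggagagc
SLC4A7: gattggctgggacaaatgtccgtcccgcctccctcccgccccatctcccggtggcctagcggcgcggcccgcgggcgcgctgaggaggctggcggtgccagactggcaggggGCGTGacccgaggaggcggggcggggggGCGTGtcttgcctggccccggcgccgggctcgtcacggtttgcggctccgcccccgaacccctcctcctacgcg

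The CA9 stretch held 1 ACGTG, on the opposite strand and 13 bases before the start, and no GCGTG. CA12 held 1 GCGTG on the opposite strand, and SLC4A7 held 2 on its own strand. Promoter sequences were at hand for 5 of the 9 genes (CA9, CA12, SLC4A2, SLC4A4 and SLC4A7). Motifs were counted in the 250 bases before the RefSeq start, which for SLC4A2 lies inside the gene as GENCODE annotates it. ACGTG occurred in 1 of these 5 and either motif in 4 of 5, where SLC4A4 had neither. Of 27305 promoters cut to 250 bases in the same way, 18.7% held ACGTG, 31.9% GCGTG and 43.1% either one. These are matches of letters and say nothing of what is bound there.

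CA12 lies on chromosome 15 from 63613577 to 63674045. It had 192 counts, of which 185 came from normoxia + DMSO replicate 4 (6.81 CPM). The other 7 were spread over 4 libraries: 4 in normoxia + DMSO replicate 3, and 1 each in normoxia + DMSO replicate 2, hypoxia + DMSO replicate 4 and hypoxia + ITE replicate 2. Mean CA12 was therefore 1.14 CPM in normoxia + DMSO and 0.0317 CPM in hypoxia + DMSO (difference -1.11 CPM, exact permutation p = 0.576, two-sided). Without replicate 4 the normoxia mean was 0.0123 CPM and the sign of the difference turned (0.0194 CPM, exact permutation p = 1). The apparent fall of CA12 in hypoxia thus rested on 1 library.

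In that library CA12 and CA9 were among the 72 genes described above, which were chosen only by their counts. Ranked by count, and named after their values were seen, ACTA1 (skeletal muscle actin) came first with 519 counts, against at most 5 in any other library. COL1A2 and COL3A1, which encode chains of fibrillar collagen, had 442 and 435 counts, and at most 0 and 2 elsewhere. The myosin gene MYH2 had 391 counts and CKM, the creatine kinase of muscle, 210. CA12 stood at rank 8 and CA9 at rank 57. CA3, the carbonic anhydrase of muscle, had 83 of its 109 counts there and at most 7 in any other library. The 72 genes made up 0.0208% of the counts of the library. The 3 fibroblast markers (COL1A1, COL3A1 and PDGFRB) summed to 91.5 CPM there, against 18.6 to 51.5 in the other libraries. COL1A1 was at 27.1 CPM against at most 3.23 elsewhere, and COL3A1 had the 435 counts given above. PDGFRB did not stand apart, at 48.41 CPM against 17.75 to 48.53 elsewhere. The 3 endothelial markers summed to 1.99 CPM against 0 to 0.595, and the renal markers to 3538 CPM against 3365 to 6584. The 3 leukocyte markers (PTPRC, CD68 and CD3E) summed to 13.2 CPM, within the 5.49 to 31.4 CPM of the other libraries. Of these, PTPRC had 6 counts there and 0 elsewhere, and CD3E had 0 there. The part of other cells or of other RNA in the CA9 and CA12 counts was not tested.

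CA8 and CA11 were near the limit of detection. CA8 had 6 counts, all in normoxia + ITE replicate 6 (0.574 CPM), and 0 in the other 23 libraries. CA11 had 176 counts in 20 libraries, with the most (47) in the deepest library. Mean CA11 was 0.199 ± 0.160 CPM (SD, n = 6) in normoxia + DMSO, 0.253 ± 0.168 in normoxia + ITE, 0.326 ± 0.353 in hypoxia + DMSO and 0.461 ± 0.450 in hypoxia + ITE. The difference between hypoxia and normoxia was 0.127 CPM with DMSO (exact permutation p = 0.461, and 0.138 CPM with p = 0.463 without replicate 4). It was 0.208 CPM with ITE (exact permutation p = 0.346). These means give each library the same weight. Counts pooled over a group and divided by its raw total gave 0.362 CPM in normoxia + DMSO and 0.188 CPM in hypoxia + DMSO. With ITE they gave 0.245 CPM in normoxia and 0.469 CPM in hypoxia. The direction with DMSO thus depended on the weighting of libraries. A test of 6 against 6 libraries allows an exact p as small as 0.00216, and no p-value of CA11 came near it. CA11 had at most 4 counts in any hypoxia + DMSO library, so a real change could have been missed. Exons of CA9 overlap ARHGEF39, those of CA11 overlap SEC1P, and those of CA13 and SLC4A2 overlap unnamed annotated genes, each on the opposite strand. SLC4A2 also overlaps an unnamed gene on its own strand. The kit kept the strand, but whether counting used it is not given in the sources used here.

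**Figure D2:**
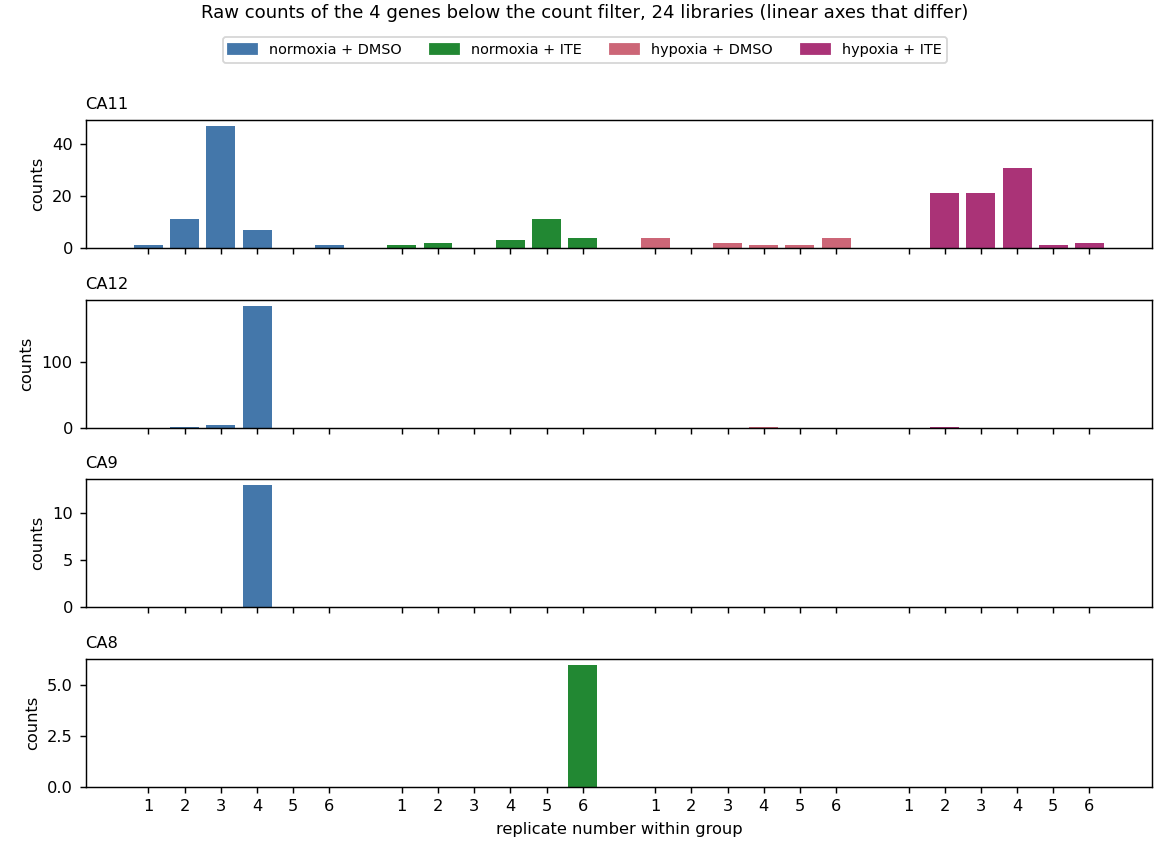
Raw counts (linear axes that differ between genes) of the 4 genes below the count filter in each of the 24 libraries, with bars coloured by group and ordered by replicate number. CA9 and CA8 had counts in 1 library each, CA12 had 185 of 192 counts in normoxia + DMSO replicate 4, and CA11 had counts in 20 libraries.

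None of the 5 expressed genes passed the threshold in hypoxia with DMSO, that is, hypoxia + DMSO against normoxia + DMSO. Of all 11735 genes tested, 1.16% rose and 0.136% fell at an adjusted p under 0.05 (1.3% in either direction), and 9.47% had an unadjusted p under 0.05. The median log2 fold change of the 5 genes was -0.14, against 0.00 over all genes. On simulated data for this comparison, the test found 69% of genes changed by 1 on the log2 scale and 11% of those changed by 0.5, so moderate changes could be missed.

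SLC4A7 encodes NBCn1, which brings sodium and bicarbonate into the cell, and lies on chromosome 3 from 27414212 to 27525911. It had the smallest adjusted p of the 5 genes. It ranged from 24.4 to 32.9 CPM in normoxia + DMSO (median 29.2) and from 14.2 to 25.3 CPM in hypoxia + DMSO (median 18.1). Only hypoxia + DMSO replicate 3 lay above the lowest normoxic library, so the groups overlapped slightly. The log2 fold change was -0.53 (SE 0.18, 95% confidence interval -0.90 to -0.16), with an unadjusted p of 0.00634 and an adjusted p of 0.217 (edgeR). The adjusted p was 0.258 without normoxia + DMSO replicate 4 (log2 fold change -0.56), and 0.0759 when 6 libraries were left out, the 5 that lay apart and replicate 4 (-0.43). Leaving out libraries that lie apart narrows the spread within groups, which by itself favours a smaller p. In bulk RNA, fewer cells that express a gene and less RNA per cell cannot be told apart. With ITE, SLC4A7 ranged from 20.1 to 28.1 CPM in normoxia (median 23.8) and from 9.89 to 24.4 CPM in hypoxia (median 21.0), with wide overlap. There the log2 fold change was -0.30 (SE 0.18, adjusted p = 0.342, edgeR).

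SLC4A2, on chromosome 7 from 150754297 to 150773613, exports bicarbonate in exchange for chloride. It ranged from 201.2 to 254 CPM in normoxia + DMSO (median 227) and from 149 to 219 CPM in hypoxia + DMSO (median 211). The lowest value was that of hypoxia + DMSO replicate 1, and the other 5 hypoxic libraries lay between 202 and 219 CPM. Its log2 fold change was -0.17 (SE 0.23, adjusted p = 0.882, edgeR), and -0.20 without normoxia + DMSO replicate 4 (adjusted p = 0.862).

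CA2, a fast enzyme of the cytosol on chromosome 8 from 86376197 to 86393722, ranged from 23.2 to 29.5 CPM in normoxia + DMSO (median 24.7) and from 19.5 to 49.3 CPM in hypoxia + DMSO (median 23.4). The high values in hypoxia were those of replicates 1 and 2 (49.3 and 43.95 CPM), which are among the libraries that lay apart, and the other 4 lay between 19.5 and 23.6 CPM. The log2 fold change was 0.16 (SE 0.24, 95% confidence interval -0.33 to 0.65, adjusted p = 0.897, edgeR), and 0.15 without normoxia + DMSO replicate 4 (adjusted p = 0.917). With the 6 libraries left out its sign turned (-0.25, adjusted p = 0.340, edgeR).

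SLC4A4 encodes NBCe1, a cotransporter of sodium and bicarbonate best known from the proximal tubule, and lies on chromosome 4 from 71928384 to 72437804. It ranged from 13.2 to 22.2 CPM in normoxia + DMSO (median 17.6) and from 11.7 to 23.4 CPM in hypoxia + DMSO (median 17.7). The groups overlapped almost wholly. The log2 fold change was -0.10 (SE 0.22, 95% confidence interval -0.55 to 0.34, adjusted p = 0.932, edgeR), and -0.13 without normoxia + DMSO replicate 4 (adjusted p = 0.918).

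CA13, the other cytosolic enzyme, on chromosome 8 from 86132816 to 86196302, ranged from 3.64 to 6.79 CPM in normoxia + DMSO (median 5.13) and from 0 to 7.99 CPM in hypoxia + DMSO (median 4.74). The 0 was that of the shallowest library, where it cannot be told from a level under about 3.90 CPM (3 counts by raw total). The log2 fold change was -0.14 (SE 0.29, 95% confidence interval -0.74 to 0.46, adjusted p = 0.932, edgeR), and -0.23 without normoxia + DMSO replicate 4 (adjusted p = 0.883).

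**Figure D3:**
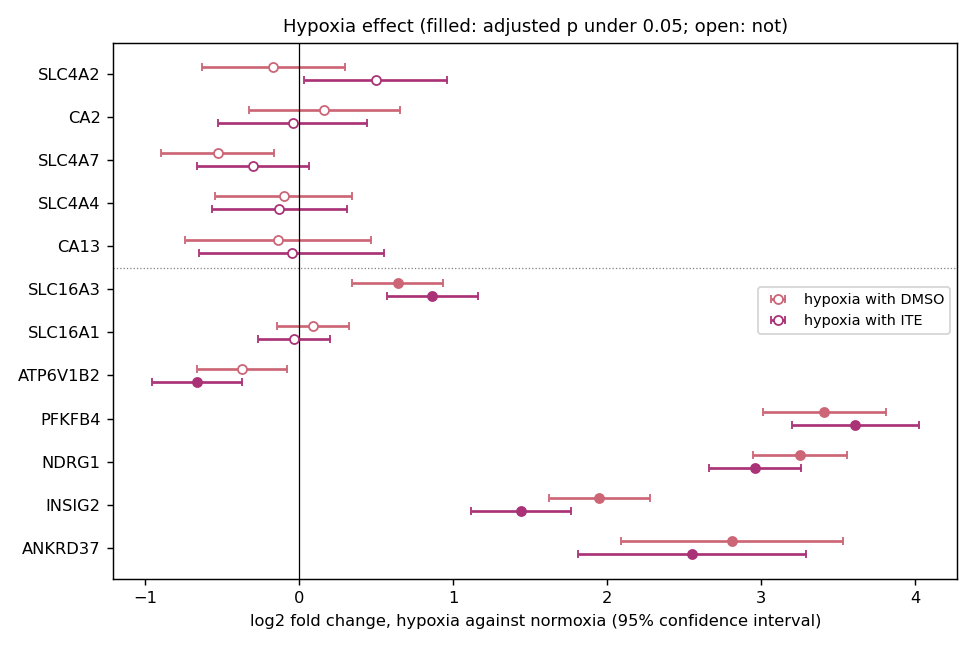
Log2 fold change of hypoxia against normoxia with its 95% confidence interval, with DMSO and with ITE (n = 6 libraries a group), for the 5 tested genes above the dotted line and 7 other genes below it. Filled points passed an adjusted p under 0.05: none of the 5 did, while NDRG1 reached 3.25 with DMSO.

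In hypoxia with ITE, hypoxia + ITE against normoxia + ITE, again 0 of the 5 genes passed, where 1.89% of all genes rose and 0.46% fell (2.35% in either direction, and 20.1% at an unadjusted p under 0.05). SLC4A2 had the smallest adjusted p. It ranged from 188 to 213 CPM in normoxia + ITE (median 201) and from 149 to 681 CPM in hypoxia + ITE (median 205). The value of 681 CPM belonged to replicate 6, the library furthest from its group, and the other 5 lay between 149 and 275 CPM. The log2 fold change was 0.50 (SE 0.23, adjusted p = 0.218, edgeR), and 0.02 without that replicate (adjusted p = 0.964). The difference thus came from 1 library.

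The other 3 genes lay near 0 in hypoxia with ITE. The log2 fold change of CA2 was -0.04 (adjusted p = 0.948), that of CA13 -0.05 (0.949) and that of SLC4A4 -0.13 (0.777), all from edgeR. In hypoxia + ITE replicate 6, CA2 (8.68 CPM), SLC4A7 (9.89 CPM), SLC4A4 (9.41 CPM) and CA13 (2.17 CPM) were each at the lowest value of the group, while SLC4A2 was at its highest. SLC4A4 was highest, at 37.1 CPM, in hypoxia + ITE replicate 1, which is shallow and held 50 counts of it.

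**Figure D4:**
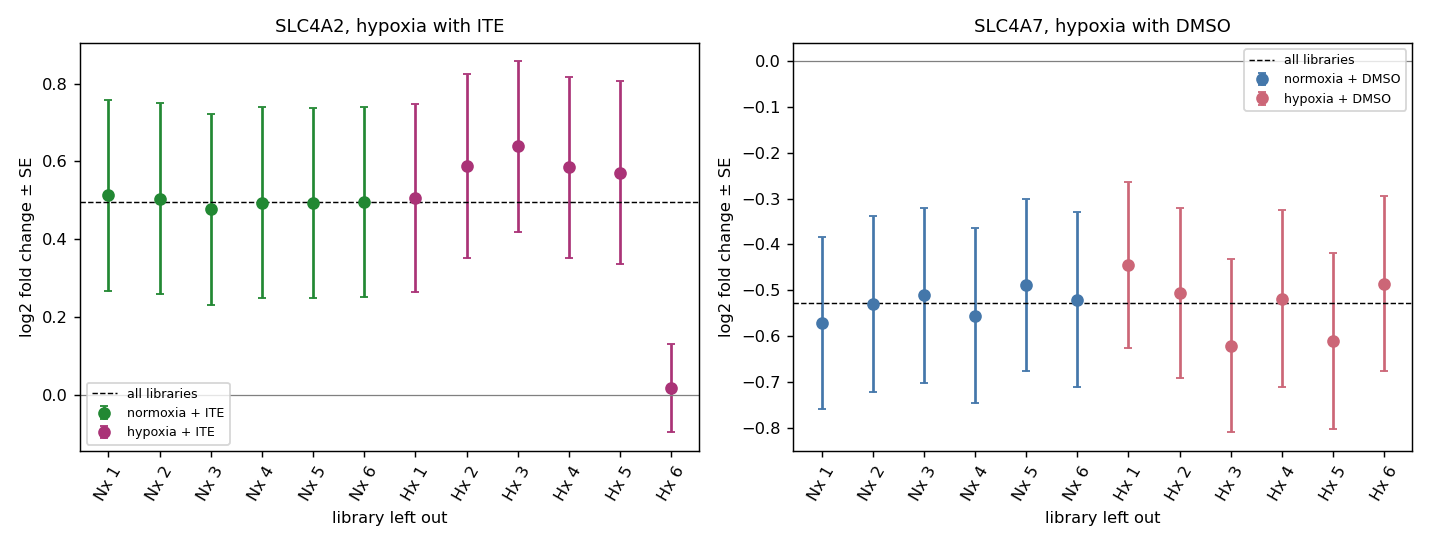
Log2 fold change ± SE with each library left out in turn (x axis, Nx normoxia and Hx hypoxia with the replicate number), for SLC4A2 in hypoxia with ITE (left) and SLC4A7 in hypoxia with DMSO (right), and a dashed line for all libraries. SLC4A2 fell from 0.50 to 0.02 without hypoxia + ITE replicate 6, while SLC4A7 stayed between -0.62 and -0.44.

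ITE changed none of the 5 genes past the threshold at either oxygen level. In normoxia, 0.0511% of all genes rose and 0 fell, with 1.46% at an unadjusted p under 0.05. The log2 fold changes of the 5 genes ran from -0.32 (CA13) to 0.08 (SLC4A4), and all had an adjusted p of 0.9998 (edgeR). SLC4A7 was at -0.27 (SE 0.17) and SLC4A2 at -0.17 (SE 0.23). Without normoxia + DMSO replicate 4 the range was -0.41 (CA13) to 0.05 (SLC4A4), with an adjusted p of 0.9999 for each. In hypoxia, 0.0597% of all genes rose and 0 fell, with 9.56% at an unadjusted p under 0.05. SLC4A2 was at 0.50 there (SE 0.23, adjusted p = 0.506, edgeR), and at 0.02 without hypoxia + ITE replicate 6, and the other 4 ran from -0.23 (CA13) to 0.06 (SLC4A4).

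Whether the hypoxic response itself differed with ITE was tested by the interaction, the effect of hypoxia with ITE minus that with DMSO. No gene of the 11735 passed there in edgeR, and 3.19% had an unadjusted p under 0.05. SLC4A2 was at 0.66 (SE 0.32, adjusted p = 0.915, edgeR), and at 0.19 without hypoxia + ITE replicate 6 or 0.70 without normoxia + DMSO replicate 4. SLC4A7 was at 0.23 (SE 0.25, adjusted p = 0.918), CA2 at -0.20, CA13 at 0.09 and SLC4A4 at -0.03. Without normoxia + DMSO replicate 4, SLC4A7 was at 0.25, CA2 at -0.19, CA13 at 0.18 and SLC4A4 at 0.0018, where the sign turned. The comparisons with normoxia + DMSO or with hypoxia + ITE share those libraries and are not independent of each other.

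Among 79 other genes of acid-base handling, 42 were tested. In hypoxia with DMSO 1 rose and 0 fell, with or without normoxia + DMSO replicate 4. With all libraries, 1.16% of all 11735 genes rose and 0.136% fell, so 1 call among 42 says little about the list as a whole. The gene that rose was SLC16A3, which encodes MCT4, the exporter of lactate with a proton. It ranged from 148 to 174 CPM in normoxia + DMSO (median 164) and from 193 to 290 CPM in hypoxia + DMSO (median 258), without overlap. Its log2 fold change was 0.64 (SE 0.14, adjusted p = 0.0143, edgeR), and 0.65 without normoxia + DMSO replicate 4 (adjusted p = 0.0310). With ITE it rose from a median of 162 CPM to 257 CPM, by 0.86 (SE 0.14, adjusted p = 0.000416, edgeR), and it passed under all 19 alternatives in both comparisons. The median log2 fold change of the 42 genes was -0.07 in hypoxia with DMSO and 0.08 in hypoxia with ITE.

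In hypoxia with ITE, where 1.89% of all genes rose and 0.46% fell, 1 of the 42 rose, SLC16A3, and 1 fell. The latter was ATP6V1B2, a subunit of the vacuolar proton pump, which went from a mean of 263 ± 36.7 CPM (SD, n = 6) to 166 ± 42.3 CPM. Its log2 fold change was -0.66 (SE 0.14, adjusted p = 0.00812, edgeR), but the adjusted p was 0.118 when only the compared groups were fitted. With DMSO it was at -0.37 (adjusted p = 0.334, and 0.429 without normoxia + DMSO replicate 4). It was 1 of 20 tested subunits of the pump, whose median was 0.03 in hypoxia with DMSO and 0.04 with ITE. Of the other subunits, the most abundant by mean CPM, ATP6V0E1 and ATP6V0C, were at 0.30 and -0.11 in hypoxia with DMSO (adjusted p = 0.670 and 0.869, edgeR).

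The other groups gave 0 genes past the threshold in both hypoxia comparisons. Of 9 other carbonic anhydrases only the mitochondrial CA5B was tested (-0.28 in hypoxia with DMSO, adjusted p = 0.848). Of 7 other SLC4 transporters, 4 were tested, among them SLC4A5 (0.09, adjusted p = 0.951) and SLC4A11 (-0.14, adjusted p = 0.924). Of 13 sodium-proton exchangers and partners, 8 were tested, with a median of -0.07, among them the scaffold protein SLC9A3R1 (-0.04) and the exchanger cofactor CHP1 (-0.05). All 8 were negative in hypoxia with DMSO, while in hypoxia with ITE 5 were positive and 3 negative. The exchanger SLC9A8 had the smallest adjusted p of the 8 in hypoxia with DMSO. It was at -0.51 (adjusted p = 0.138, and 0.0808 without normoxia + DMSO replicate 4, edgeR). Among the 4 tested monocarboxylate transporters and partners, SLC16A1, which encodes MCT1, was at 0.09 (adjusted p = 0.875) and BSG, the chaperone of MCT1 and MCT4, at -0.02 (adjusted p = 0.992). Of the SLC26 anion exchangers, 3 of 11 were tested, with SLC26A2 at -0.09 and SLC26A6 at 0.17. The proton-gated channel ASIC1 was at -0.71 (adjusted p = 0.552). ITE moved 0 of the 42 past the threshold at either oxygen level, and the interaction 0.

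Markers of intercalated cells (FOXI1, SLC4A1, ATP6V1B1, ATP6V0D2 and SLC26A4) were at or near 0. Outside normoxia + DMSO replicate 4, 2 of 5 were at 0 and the summed level was at most 0.175 CPM. The genes whose log2 CPM followed that of SLC4A7 most closely over the 24 libraries were LRRC8B (Pearson r = 0.89), MAPK14 (0.87), ZNF551 (0.87), PLAGL2 (0.87) and DNMT3B (0.86). The median r over 11624 genes was 0.07, but many other genes also had an r above 0.72. This is a description of libraries that include the 5 lying apart.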

How the data were processed

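Polyadenylated RNA of RCC4+VHL cells was sequenced in paired ends from directional libraries. The authors trimmed reads with Trim Galore, aligned them with HISAT2 to GRCh37, removed non-unique fragments with Picard and counted reads per gene with HTSeq, and the deposited values are raw counts, 1 per gene symbol and library. Groups and replicate numbers came from the labels. Counts were analysed with edgeR 4.0.16 in R 4.3.3: filterByExpr (minimum count 10), TMM normalisation, and a quasi-likelihood test with 1 mean per group over 24 libraries, with two-sided p-values adjusted by Benjamini-Hochberg over 11735 genes (threshold 0.05). CPM used TMM-scaled library sizes, and log2 CPM a prior count of 2. Genes below the filter were compared by exact permutation of mean CPM. Exon lengths and positions came from GENCODE release 44 lifted to GRCh37. The scripts were tested on simulated data with 200 changed genes. Alternatives were another normalisation, no filter, DESeq2 1.42.0, the compared groups alone, a replicate block and each library left out. After seeing the data, 2 were added: the block without normoxia + DMSO replicate 4, and 6 libraries left out. Members and gene lists were chosen with earlier results of these data known. Besides the 9 members, genes named were the RT-qPCR targets, those of each list past the threshold in either hypoxia comparison, up to 2 more per list by mean CPM, and the 5 most like SLC4A7. A gene that this rule names is not reported here. CA3, ACTA1 and the other genes of normoxia + DMSO replicate 4 were named after their values were seen, as was SLC9A8. The study's methods call the 6 replicates of each group independent.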

Additional observations from a re-analysis of the deposited data

Results flagged for a closer look

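The highest or lowest library stood far from the other 5 of its group in 8 of 29 groups of 6 values examined. A chance figure of about 1.45 does not suit CA8, CA9 and CA12, which were at or near 0 in most libraries. There even 1 count can set a library apart, so the excess over that figure is not a result for these genes. CA9 was at 0.478 CPM and CA12 at 6.81 CPM in normoxia + DMSO replicate 4, the library that held the 72 genes far above all others. CA8 was at 0.574 CPM in normoxia + ITE replicate 6 (6 counts), and CA12 at 0.190 CPM in hypoxia + DMSO replicate 4 and at 0.0312 CPM in hypoxia + ITE replicate 2 (1 count each). SLC4A2 was lowest at 149.4 CPM in hypoxia + DMSO replicate 1 and highest at 681 CPM in hypoxia + ITE replicate 6, and SLC4A4 was highest at 37.1 CPM in hypoxia + ITE replicate 1. These 3 libraries are among the 5 that lay apart over all genes.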

How the results depend on the processing

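The number of members past the threshold was 0 under each alternative run, and of 530 log2 fold changes of members recomputed, 493 kept their sign and 37 turned, all without passing the threshold. Causes were not tested. With the 6 libraries left out (chosen after seeing the data), CA2 turned to -0.25 in hypoxia with DMSO, 0.048 in hypoxia with ITE, 0.31 for ITE in hypoxia and 0.30 in the interaction. SLC4A2 turned to -0.060 and SLC4A7 to 0.041 for ITE in hypoxia, SLC4A4 to 0.088 in the interaction, and SLC16A3 to -0.067 for ITE in hypoxia and -0.056 in the interaction. In hypoxia with DMSO 2 other pH genes then fell, ATP6V0A2 (-0.57, edgeR adjusted p = 0.0285) and SLC9A8 (-0.61, adjusted p = 0.0202), among 173 genes lower over the whole table. Leaving out libraries that lie far from their group narrows the spread within groups, which by itself favours smaller p-values. Only 4 hypoxia + DMSO and 3 hypoxia + ITE libraries then remained. Without hypoxia + ITE replicate 5, SLC9A3R2 rose with ITE (1.27, edgeR adjusted p = 0.0432). CA12 in hypoxia with DMSO turned to 0.0194 CPM without normoxia + DMSO replicate 4.

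With 1 library left out, log2 fold changes in hypoxia with DMSO ran from -0.086 to 0.27 for CA2, -0.34 to 0.0044 for CA13 and -0.17 to 0.0096 for SLC4A4. In hypoxia with ITE they ran from -0.15 to 0.11 for CA2 and -0.20 to 0.047 for CA13, for ITE in hypoxia from -0.28 to 0.072 for CA2, -0.15 to 0.16 for SLC4A4 and -0.14 to 0.056 for SLC4A7, and for ITE in normoxia from -0.037 to 0.073 for CA2 and -0.041 to 0.013 for SLC16A3. In the interaction they ran from -0.31 to 0.046 for CA2, -0.057 to 0.29 for CA13 and -0.23 to 0.085 for SLC4A4. Counts over all genes then ran from 108 to 139 higher and 4 to 14 lower in hypoxia with DMSO, 137 to 644 and 22 to 178 in hypoxia with ITE (1 to 2 other pH genes higher), and 4 to 8 higher for ITE in hypoxia.

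Genes over the whole table called lower in hypoxia with DMSO numbered 16, and 25 with the replicate block, 48 with the compared groups only, 46 with DESeq2 and 173 with the 6 libraries left out (358 higher, against 136). In hypoxia with ITE, 222 were higher and 54 lower. These became 34 lower without the filter, 83 and 4 with the compared groups only (and 0 other pH genes lower, ATP6V1B2 at -0.67), 507 and 177 with DESeq2, and 98 lower with the 6 left out. For ITE in normoxia, 6 were higher and 0 lower, and 13 higher with the block, 28 and 3 with the compared groups only, 13 and 1 with DESeq2, and 31 and 3 with the 6 left out. For ITE in hypoxia, 7 were higher and 0 lower, 1 higher with the compared groups only and 1 lower with DESeq2.

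Same-numbered libraries of the groups compared correlated by 0.02 to 0.24 on average in their deviations from the group means. Not each pair exceeded 0.1, and the main fit did not take the numbers as pairs. For ITE in normoxia, however, 5 of 6 ITE libraries correlated best with the DMSO library of their own number. The same held for 4 of 6 hypoxic libraries in hypoxia with DMSO and 3 of 6 in hypoxia with ITE. For ITE in hypoxia it held for 1 of 6 ITE libraries. The replicate block allows for an effect of the replicate number. With the replicate block SLC4A7 in hypoxia with DMSO was at -0.54 (edgeR adjusted p = 0.144), and the block changed no call of a member. Without the filter, CA12 in hypoxia with DMSO had an edgeR adjusted p of 0.242 and CA9 one of 0.583. Depth limits the low genes most: 3 counts amount to between 0.032 and 3.90 CPM by raw library totals.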
